A study of Mus musculus with 48 samples.

Results

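The interferon regulatory factors (IRFs) are transcription factors that share an N-terminal DNA-binding domain. The 8 genes described here, Irf1, Irf2, Irf3, Irf4, Irf5, Irf7, Irf8 and Irf9, were taken by gene symbol from the count table of RAW264.7 cells, a mouse macrophage line, and are 8 of its 49568 genes. Messenger RNA was sequenced after 72 h of treatment. All cells came from 1 cell line, and 8 treatments were compared. Cells received no IFN-γ or 5 ng/ml of it, and in either case PBS with no peptide or 1 of 3 peptides, named LE, SE and PE, at a dose of 100 µg/ml. The peptides are short synthetic copies of 1 stretch of the human HLA-DRβ chain. LE carries the sequence of the lupus risk allele, SE that of a rheumatoid arthritis risk allele and PE that of an allele linked to protection from autoimmune disease. The values below are from the 24 libraries whose labels are single letters, 3 per treatment, with 16498562 to 26929356 counted reads each.

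IRFs bind DNA elements with repeated GAAA cores, which sit in front of interferon genes and of genes that interferons switch on. In macrophages, Irf1 is one of the first genes that IFN-γ activates. Irf2 can occupy the same elements and oppose Irf1. Irf3, Irf5 and Irf7 are activated by kinases downstream of nucleic acid sensors and Toll-like receptors, and Irf7 is itself an interferon-induced gene. Irf9 is the DNA-binding part of the complex that answers type I interferon. Irf4 and Irf8 bind DNA weakly on their own and act with partners such as PU.1 (Spi1) or AP-1 factors. Irf8 is needed for the monocyte lineage, and Irf4 is known from plasma cells, from dendritic cells and from alternatively activated macrophages.

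All 8 members had at least 1 RefSeq promoter window (GRCm38.p6), 11 windows in all, each with 250 bases before and 50 bases after an annotated start. Each window was searched on both strands for the interferon-stimulated response element (ISRE) pattern GAAANNGAAA, the gamma-activated site (GAS) pattern TTCNNNGAA, which is found in front of many IFN-γ-induced genes, and the NF-κB motif. Of 32851 windows of all genes, 3.44% held the ISRE pattern, 8.3% the GAS pattern and 4.51% the NF-κB motif. These shares are per window, while the members below are counted per gene, with 11 windows for 8 genes. Among the members, the GAS pattern was found for 3 genes (Irf1, Irf2 and Irf8), the NF-κB motif for 2 (Irf1 and Irf2) and the ISRE pattern for 1 (Irf2), and no 2 matches overlapped. The GAS pattern of Irf1 began 90 bases before the start, and the pair in Irf8 began 171 and 153 bases before it. In Irf2 the ISRE pattern began 241, the GAS pattern 224 and the NF-κB motif 17 bases before the start, and the NF-κB motif of Irf1 began 13 bases before it. The 250 bases upstream are printed for Irf1 and Irf8, which were both higher with IFN-γ, for Irf2, which had all 3 patterns and was not called in any comparison, and for Irf4, which changed most with the peptides and had no match. Irf7 was also called higher with IFN-γ, had no match and is not printed. Capitals mark the matches, and a match is only a run of letters, not evidence of binding.
Irf1 (chr11:53769764-53770013, plus strand): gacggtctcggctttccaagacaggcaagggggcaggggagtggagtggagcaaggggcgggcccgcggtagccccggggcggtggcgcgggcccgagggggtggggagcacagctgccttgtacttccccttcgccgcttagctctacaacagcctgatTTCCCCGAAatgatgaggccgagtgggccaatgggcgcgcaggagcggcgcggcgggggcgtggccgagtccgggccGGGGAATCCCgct
Irf8 (chr8:120736108-120736357, plus strand): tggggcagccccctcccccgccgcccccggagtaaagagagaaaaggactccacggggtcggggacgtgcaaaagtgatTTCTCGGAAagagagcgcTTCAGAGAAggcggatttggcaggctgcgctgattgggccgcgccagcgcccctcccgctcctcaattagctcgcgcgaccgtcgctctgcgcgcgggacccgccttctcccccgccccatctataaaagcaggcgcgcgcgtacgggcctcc
Irf2 (chr8:46739495-46739744, plus strand): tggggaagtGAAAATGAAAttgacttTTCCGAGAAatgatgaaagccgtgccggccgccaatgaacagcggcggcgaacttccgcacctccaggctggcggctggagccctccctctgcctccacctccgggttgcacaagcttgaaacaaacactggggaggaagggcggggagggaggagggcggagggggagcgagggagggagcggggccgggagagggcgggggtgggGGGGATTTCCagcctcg
Irf4 (chr13:30748983-30749232, plus strand): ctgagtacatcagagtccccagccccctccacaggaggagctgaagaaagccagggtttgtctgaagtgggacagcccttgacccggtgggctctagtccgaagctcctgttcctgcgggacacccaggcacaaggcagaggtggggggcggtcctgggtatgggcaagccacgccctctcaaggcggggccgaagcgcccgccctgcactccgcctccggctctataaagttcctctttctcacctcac

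The labels were checked by Gbp2, a guanylate-binding protein gene that IFN-γ strongly induces. Its level, in CPM (counts per 1000000 reads of a library after TMM scaling), was at most 1.04 in the letter-labelled libraries without IFN-γ and at least 117 in those with it, so all 24 went with their labels. The series also holds 24 libraries labelled "HLA" and a number, and 12 of these went against their labels. Those labelled IFN-γ or SE + IFN-γ were low for Gbp2, and those labelled LE or PE were high. Irf1 followed the same split in these libraries. It reached 120.6 ± 29.0 CPM (SD, n = 3) in the 3 libraries labelled LE and 157.6 ± 17.6 in the 3 labelled PE, against 18.0 ± 0.555 in the 3 labelled PBS. The comparisons were set on the letter-labelled libraries from the start. All 24 HLA-labelled libraries, also the 12 that went with their labels, were left out of every comparison below. Results with them are given only in the closing section.

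**Figure D1:**
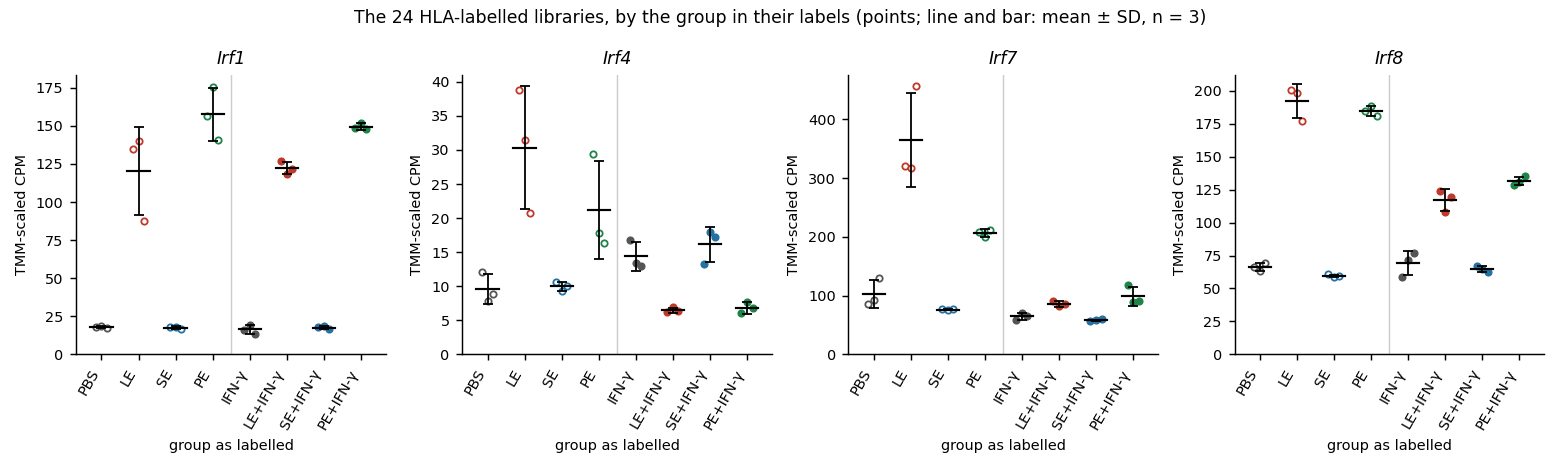
Irf1, Irf4, Irf7 and Irf8 in the 24 HLA-labelled libraries. The x axis is the group named in the label and the y axis the TMM-scaled level in CPM; points are libraries, the line is the mean and the bar the SD (n = 3). Irf1 was high in the libraries labelled LE, PE, LE + IFN-γ and PE + IFN-γ and low in those labelled IFN-γ and SE + IFN-γ.

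The cells had the defining markers of macrophages. Of 12 macrophage markers, 11 were above 1 CPM in some letter-labelled library and their summed level ran from 8170 to 14730 CPM over the 24 libraries, with Mertk at 0.410 CPM or less. Of 8 fibroblast markers 7 were below 1 CPM in every library, and the summed level was at most 1.90 CPM. Of 8 T and NK cell markers 7 were below 1 CPM and 2 were at 0. Their sum, nearly all of it Lck, was 10.9 to 20.8 CPM without IFN-γ and 17.1 to 28.8 CPM with it. Osteoclast markers summed to 427 to 507 CPM without IFN-γ and 147 to 239 CPM with it. In a bulk sample, fewer cells of a type and less RNA per cell cannot be told apart.

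Levels of different genes were compared per kilobase of merged exons. These join the exons of all annotated transcripts and can be longer than the transcripts that were present. For Irf7 they covered the whole gene, 3776 bases, so the order of genes below depends on this choice of length. In PBS, Irf5 had the highest level per kilobase (49.1 CPM/kb), followed by Irf7 (21.2), Irf8 (14.5), Irf3 (13.5), Irf9 (8.46), Irf1 (5.50), Irf2 (5.22) and Irf4 (1.58). With IFN-γ alone, Irf7 (40.2 CPM/kb) and Irf1 (39.7) stood next to Irf5 (57.6), and Irf4 remained lowest at 0.953. With LE + IFN-γ and with SE + IFN-γ, Irf7 had the highest level per kilobase of the 8 members, at 81.7 CPM/kb beside 63.0 for Irf5, and at 95.3 beside 60.9. Irf4 was the scarcest member, with 61 reads in its lowest library and 611 in its highest. Exons of other genes overlap 14.1% of the exon bases of Irf5 (Tnpo3) and at most 3.4% of those of Irf1, Irf3, Irf7 and Irf9, and reads there could have been lost or misassigned because the strand setting of the counting is not given in the sources used here.

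**Figure D2:**
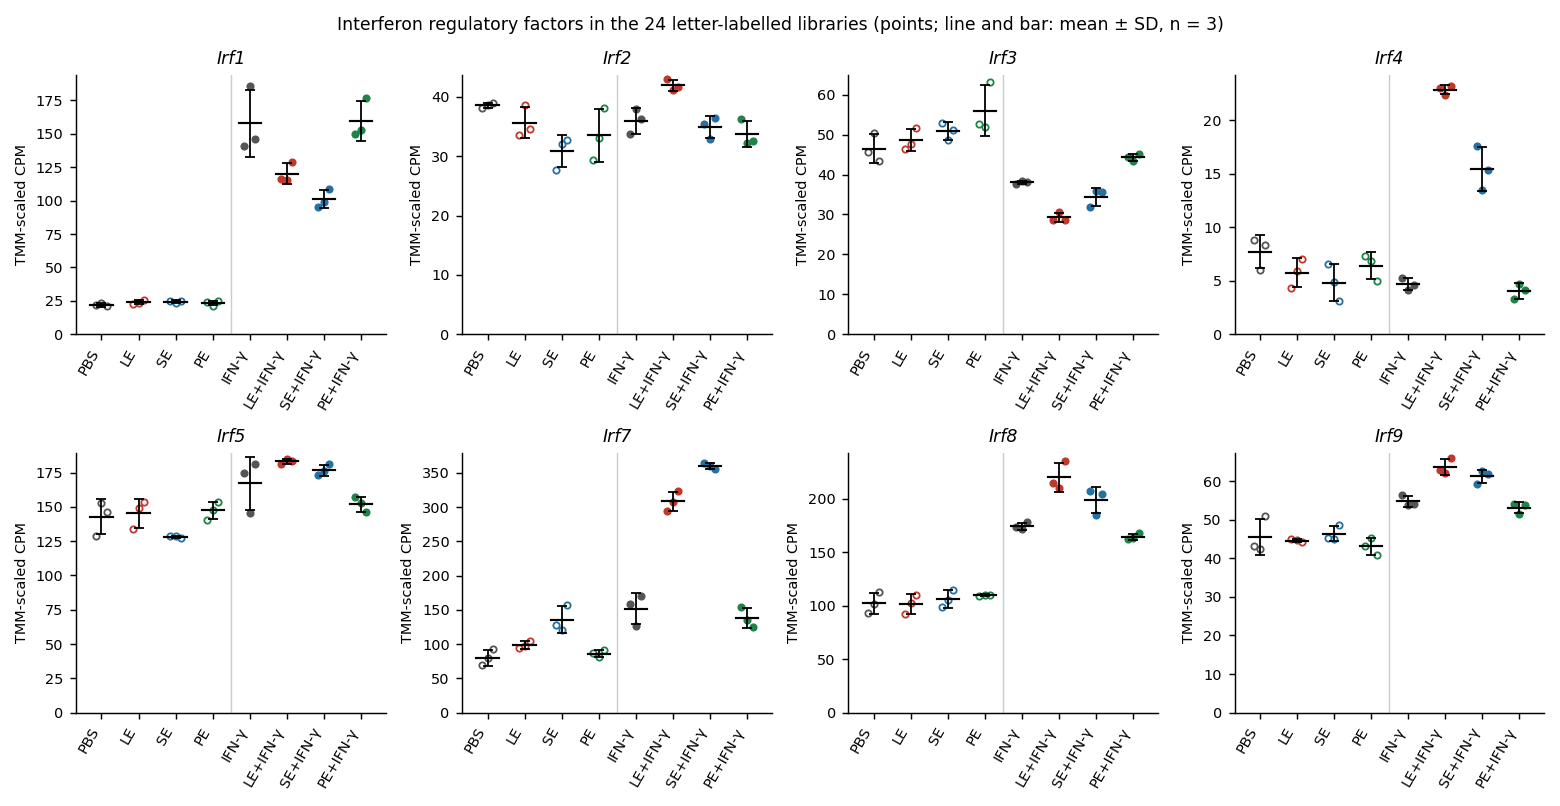
Level of each member in the 24 letter-labelled libraries. Each panel is 1 gene, the x axis is the treatment and the y axis the TMM-scaled level in CPM; points are libraries (open without and filled with IFN-γ), the line is the mean and the bar the SD (n = 3). Irf4 rose above the other groups in LE + IFN-γ and SE + IFN-γ, where its libraries lay between 13.5 and 23.2 CPM, against 8.82 CPM at most elsewhere.

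A member was called when the adjusted p of edgeR's quasi-likelihood test was below 0.05 and the fold change above 1.5. IFN-γ against PBS called 4 of the 8 members, 3 higher (Irf1, Irf7 and Irf8) and 1 lower (Irf4), where 18.1% of 12242 genes were called, 9.79% higher and 8.28% lower. The median log2 fold change of the members was 0.23 and that of all genes was -0.0087. The peptides alone changed little. SE alone raised Irf7, with 1.92% of 12420 genes called. LE alone called 0 of the 8 members by edgeR and by DESeq2 (0.0242% of genes), and 1 member, Irf7, had an unadjusted p under 0.05. PE alone also called 0 of 8 by either tool (3.13% of genes), and Irf3 was the 1 member with an unadjusted p under 0.05. Which genes pass in these comparisons with PBS depended on single libraries, as given in the closing section.

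Model A asks what a peptide adds to IFN-γ, by setting peptide plus IFN-γ against IFN-γ alone. With LE, 2 of 8 members were called, Irf4 and Irf7, both higher, against 15.5% of 12720 genes, and 5 more passed the adjusted p with folds under 1.5. With SE, Irf4 and Irf7 were higher and Irf1 lower, against 7.39% of genes. With PE, 0 of 8 were called by edgeR and by DESeq2, against 0.629% of genes, and Irf3 was the 1 member with an unadjusted p under 0.05. The median log2 fold change of the members was 0.21 with LE, 0.12 with SE and -0.085 with PE, beside -0.010, -0.0061 and -0.0042 over all genes. The 3 comparisons share the IFN-γ libraries, so their values are set side by side and not correlated.

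Model B asks what IFN-γ adds to a peptide, by setting peptide plus IFN-γ against the peptide alone. It called 5 of 8 members with LE (35.1% of 12947 genes), 4 with SE (26.3%) and 3 with PE (21%). Irf1 and Irf7 were higher with every peptide. Irf4 was higher with LE and SE and lower with PE. The interaction tests whether the IFN-γ effect differs with and without a peptide, over 13096 genes. It called Irf4 and Irf7 for LE (18.9% of genes) and Irf4 and Irf1 for SE (7.96% of genes). For PE, 0 of 8 members and 0 of all genes (0%) were called by edgeR and by DESeq2. At an unadjusted p under 0.05 there were 1073 genes and 0 members.

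**Figure D3:**
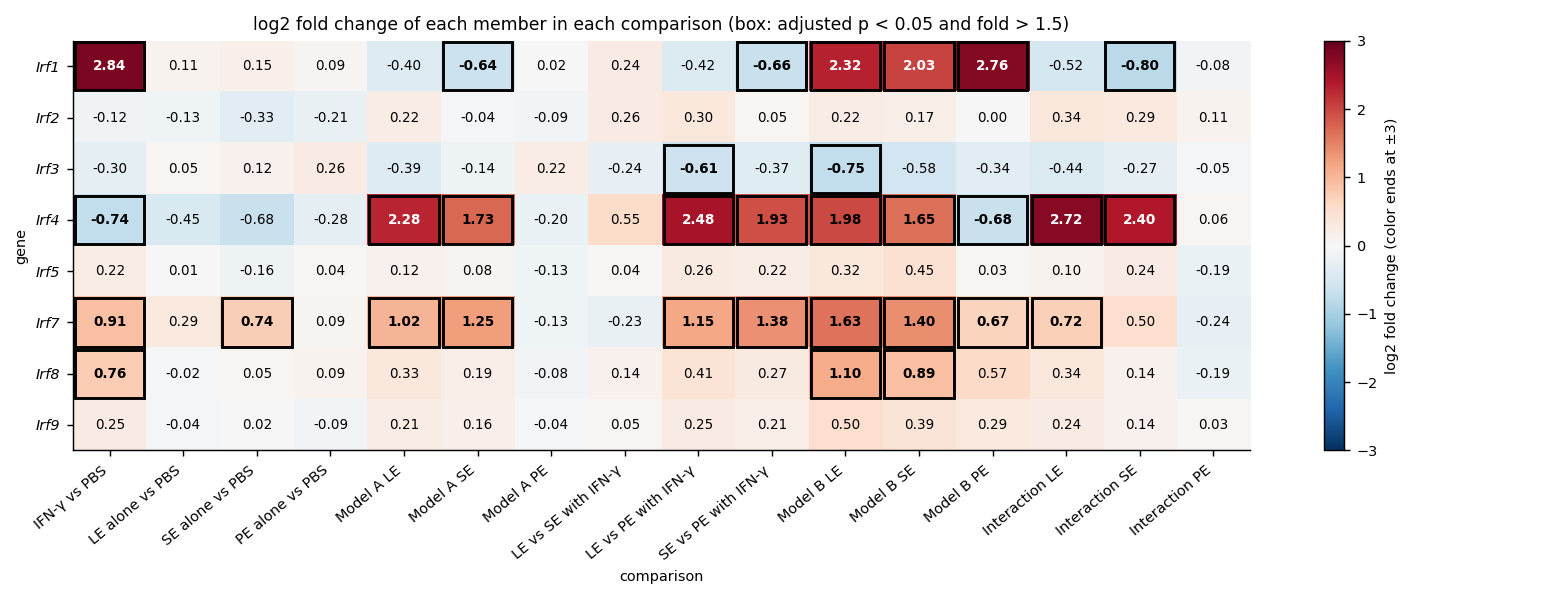
log2 fold change of each member (rows) in each of 16 comparisons (columns), as numbers and as color from blue (lower) to red (higher). Boxes mark calls (adjusted p below 0.05 and fold above 1.5). The IFN-γ effect on Irf4 was -0.74 without a peptide, and 1.98 with LE and 1.65 with SE in Model B. Against IFN-γ alone (Model A), Irf4 was at 2.28 with LE and 1.73 with SE. Irf2, Irf5 and Irf9 have no box.

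Irf1, the IFN-γ-induced activator (chr11:53770014-53778374, plus strand, GRCm38), was low without IFN-γ and high with it. In PBS the 3 libraries had 21.6, 23.2 and 20.9 CPM, and with IFN-γ alone 141, 186 and 146 CPM. The 12 libraries without IFN-γ stayed between 20.9 and 25.5 CPM and did not overlap the 12 with it. IFN-γ raised Irf1 by 2.84 ± 0.11 on the log2 scale (standard error, as in all values on that scale), 7.14-fold, with an adjusted p of 5.02e-09. With LE + IFN-γ the libraries had 116, 116 and 129 CPM, and with SE + IFN-γ 95.2, 99.2 and 109 CPM. All 6 lay below the lowest library of IFN-γ alone. PE + IFN-γ, with 149.8, 153 and 177 CPM, overlapped IFN-γ alone.

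The smaller Irf1 level with SE + IFN-γ passed the test in Model A, with a log2 fold change of -0.64 ± 0.09 and an adjusted p of 3.21e-05. That call rested on the fold threshold. Without IFN-γ replicate 2, the highest of the 3 libraries, the log2 fold change was -0.51 (adjusted p 5.52e-05) and the fold fell under 1.5. With LE the value was -0.40 ± 0.09 (adjusted p 0.0013), which passed the p but not the fold. With PE it was 0.02, with a 95% confidence interval from -0.17 to 0.21. SE + IFN-γ was also below PE + IFN-γ (-0.66 ± 0.09, adjusted p 2.37e-05), and without PE + IFN-γ replicate 3 this became -0.58 and fell short of the fold. The IFN-γ effect was 2.32 ± 0.08 with LE, 2.03 ± 0.08 with SE and 2.76 ± 0.08 with PE in Model B. The interaction was called for SE, at -0.80 ± 0.13 (adjusted p 0.000152). For LE it was -0.52 ± 0.13 (adjusted p 0.00338), and without IFN-γ replicate 1 it was -0.60 and past the fold. Irf1 thus fell in the order PE + IFN-γ, IFN-γ, LE + IFN-γ, SE + IFN-γ, and the first 2 of these overlapped.

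Irf2, which can oppose Irf1 (chr8:46739732-46847458, plus strand), varied little. Group means ran from 30.9 CPM in SE to 42.0 CPM in LE + IFN-γ. It was called in none of the 16 comparisons by edgeR, under any alternative run on the letter-labelled libraries. LE + IFN-γ had 43.0, 41.2 and 41.6 CPM, and all 3 were above the highest library of any other treatment, 39.0 CPM. That excess passed the adjusted p against IFN-γ alone (0.22 ± 0.07, adjusted p 0.0139), against SE + IFN-γ (0.26 ± 0.07, adjusted p 0.00833) and against PE + IFN-γ (0.30 ± 0.07, adjusted p 0.000993), with folds from 1.16 to 1.24. SE alone was lower than PBS by a fold of 0.793 (adjusted p 0.042).

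Irf4, the factor of plasma cells and alternatively activated macrophages (chr13:30749226-30766976, plus strand), changed most of the 8 members when LE or SE was added to IFN-γ. PBS libraries had 8.82, 5.99 and 8.38 CPM. IFN-γ alone gave 5.28, 4.14 and 4.59 CPM, below every PBS library, and the fall was -0.74 ± 0.19 on the log2 scale with an adjusted p of 0.00787. LE + IFN-γ gave 23.0, 22.4 and 23.2 CPM, and SE + IFN-γ gave 17.6, 13.5 and 15.3 CPM. PE + IFN-γ gave 3.27, 4.73 and 4.15 CPM and overlapped IFN-γ alone. The LE and SE groups overlapped neither each other nor any other treatment.

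Against IFN-γ alone, Irf4 was 4.86-fold higher with LE (2.28 ± 0.12, adjusted p 2.13e-10) and 3.32-fold higher with SE (1.73 ± 0.13, adjusted p 1.66e-08). With PE the log2 difference was -0.20, with a 95% confidence interval from -0.51 to 0.11. No such rise was seen without IFN-γ. LE alone had 4.34, 5.96 and 7.01 CPM and SE alone 6.52, 4.86 and 3.10 CPM, no higher than PBS. The difference of SE alone from PBS was -0.68 ± 0.25 (adjusted p 0.0821), which missed the threshold by edgeR but passed it by DESeq2 (adjusted p 0.0492), without the filter on low counts, with a replicate block and in 1 fit of all 8 groups. The interaction was 2.72 ± 0.29 for LE (adjusted p 1.87e-07), 2.40 ± 0.29 for SE (adjusted p 4.38e-06) and 0.06 ± 0.30 for PE, whose 95% confidence interval ran from -0.57 to 0.68. Model B called Irf4 higher with LE (1.98 ± 0.19) and SE (1.65 ± 0.20) and lower with PE (-0.68 ± 0.22, adjusted p 0.0131). The call with PE was lost without PE replicate 1 (-0.57, adjusted p 0.0642) or PE + IFN-γ replicate 1 (-0.54, adjusted p 0.0751). LE exceeded SE in the presence of IFN-γ by 0.55 ± 0.11 (adjusted p 0.00101), a 1.47-fold difference, and without SE + IFN-γ replicate 1 by 0.66, past the fold.

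**Figure D4:**
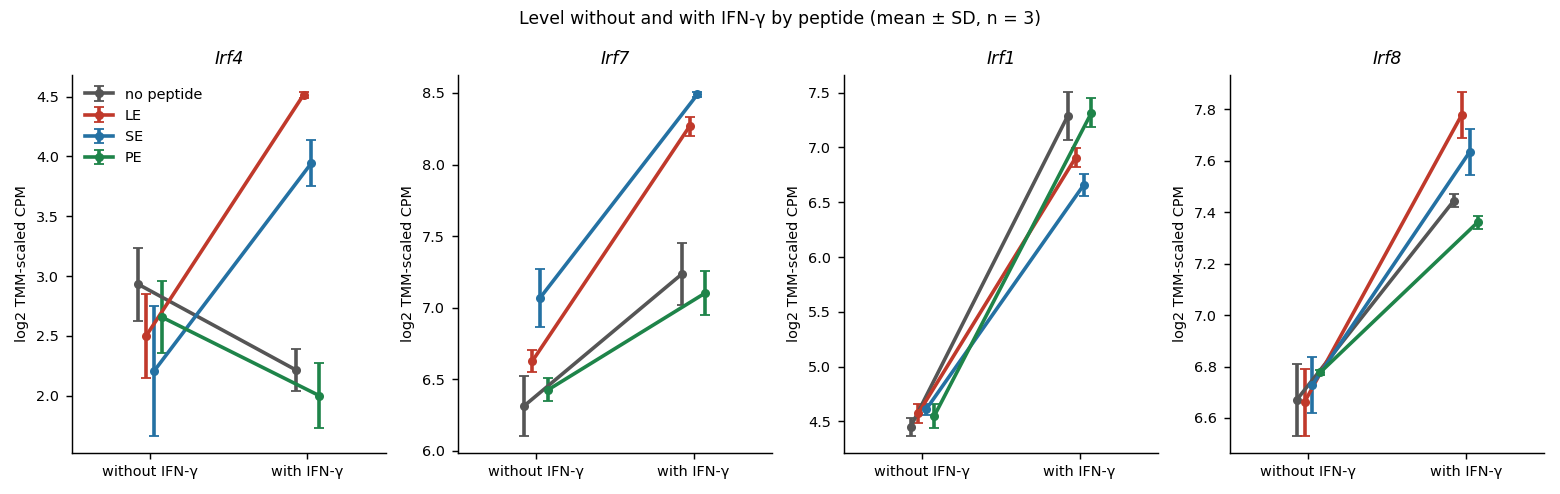
Mean log2 level (± SD, n = 3) of Irf4, Irf7, Irf1 and Irf8 without IFN-γ (left of each panel) and with it (right), with 1 line per peptide. The Irf4 lines of LE and SE climb while those of PE and of no peptide fall, and the Irf1 lines of LE and SE end below the other two.

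Among the treatments with IFN-γ, a plasma cell gene was high where Irf4 was high. Of 8 B and plasma cell markers, 7 were below 1 CPM in every letter-labelled library, with Ms4a1 and Blk at 0. The exception was Sdc1 (syndecan-1), at 15.2 to 81.5 CPM, which made up nearly all of the list's sum. That sum was 15.3 to 17.0 CPM with IFN-γ, 65.2 to 81.6 with LE + IFN-γ, 47.1 to 61.8 with SE + IFN-γ and 16.4 to 19.8 with PE + IFN-γ. Without IFN-γ it was 31.5 to 49.8 CPM, where Irf4 was low. The sum was 41.5 to 46.6 CPM with SE alone and 31.5 to 37.6 CPM in PBS, while Irf4 was no higher with SE alone. In Model B with SE, Irf4 was called higher, and Sdc1, the 1 tested gene of the list, was not called. Of 10 dendritic cell markers 6 were below 1 CPM in every library.

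Irf8, the factor of the monocyte lineage (chr8:120736358-120756694, plus strand), was higher in every library with IFN-γ than in any without it. PBS had 92.6, 102 and 112 CPM and IFN-γ alone 173, 172 and 178 CPM, a rise of 0.76 ± 0.08 on the log2 scale (adjusted p 1.55e-05). LE + IFN-γ had 214, 209.8 and 236 CPM, SE + IFN-γ 207, 185 and 204 CPM and PE + IFN-γ 162, 163 and 167 CPM. The LE and SE groups lay above IFN-γ alone and the PE group below it, without overlap. In Model A these differences stayed under 1.5-fold, at 0.33 ± 0.06 for LE (adjusted p 9.91e-05), 0.19 ± 0.06 for SE (adjusted p 0.0132) and -0.08 ± 0.06 for PE (adjusted p 0.368). Model B called Irf8 higher with LE (1.10 ± 0.07) and SE (0.89 ± 0.07). With PE it was 0.57 ± 0.07, just under the fold, and passed it without PE + IFN-γ replicate 1 (0.59) or replicate 2 (0.59). The summed dendritic cell markers were 6.21 to 10.4 CPM without IFN-γ and 44.3 to 83.1 CPM with it, mostly from Itgax and H2-DMb2, and Flt3, Xcr1 and Siglech were at most 0.737 CPM. Clec9a, a receptor of cross-presenting dendritic cells, reached 9.98 CPM. It was called higher with IFN-γ than in PBS, and in Model A with LE (0.96 ± 0.25) and SE (0.88 ± 0.25), where Itgax with LE (1.07 ± 0.12) and Xcr1 with SE (1.37 ± 0.45) were also called. Against PE in the presence of IFN-γ, Itgax and Clec9a were called higher with LE and with SE. Of the same 5 tested markers, Zbtb46 was called lower with LE there and H2-DMb2 lower with SE. These calls are by edgeR. DESeq2 called 1 dendritic cell marker in Model A with SE, where edgeR called 2. Between LE and PE it called 2, where edgeR called 3. Over all genes, 21.6% were called for LE against PE and 7.59% for SE against PE. The part of these markers in the Irf8 result was not tested.

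Irf7, the interferon-induced activator of type I interferon genes (chr7:141262706-141266481, minus strand), responded to IFN-γ, to SE and to both together. PBS had 68.9, 79.6 and 92.1 CPM and IFN-γ alone 158, 127 and 170.2 CPM, a rise of 0.91 ± 0.12 on the log2 scale (adjusted p 0.000106). SE alone had 127, 121 and 158 CPM, all above PBS and 0.74 ± 0.10 higher on the log2 scale (adjusted p 0.00227). LE alone had 94.4, 97.4 and 105 CPM, also above PBS, but the difference of 0.29 ± 0.10 missed the threshold (adjusted p 0.241). PE alone had 86.2, 81.1 and 90.8 CPM and overlapped PBS.

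With IFN-γ, Irf7 stood at 295, 307 and 323 CPM with LE, at 364, 359 and 355 CPM with SE and at 154, 135 and 125 CPM with PE. Every SE library was above every LE library, and the PE group overlapped IFN-γ alone. Model A gave 1.02 ± 0.09 for LE (adjusted p 4.86e-08), 1.25 ± 0.09 for SE (adjusted p 1.05e-08) and -0.13 for PE, with a 95% confidence interval from -0.32 to 0.05. The difference of LE from SE was -0.23 ± 0.09 (adjusted p 0.0449), a fold of 0.852, so Irf4 and Irf7 placed the 2 risk peptides in opposite order, both within 1.5-fold. The interaction was called for LE (0.72 ± 0.15, adjusted p 0.000523). For SE it was 0.50 ± 0.15 (adjusted p 0.019), under the fold, and reached 0.59 to 0.61 without PBS replicate 1, SE replicate 3 or IFN-γ replicate 3, each past the fold. Model B gave 1.63 ± 0.08 with LE, 1.40 ± 0.08 with SE and 0.67 ± 0.08 with PE, all called.

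Irf3, the factor that TBK1 activates and that cells keep at a steady level (chr7:44997648-45002848, plus strand), moved the other way. PBS had 45.7, 50.5 and 43.3 CPM, PE alone 52.6, 51.8 and 63.3 CPM and IFN-γ alone 37.7, 38.4 and 38.2 CPM. LE + IFN-γ was lowest, with 28.5, 30.7 and 28.6 CPM, followed by SE + IFN-γ with 31.9, 35.8 and 35.6 CPM, and PE + IFN-γ had 44.4, 43.4 and 45.2 CPM. The 4 IFN-γ treatments did not overlap one another. LE + IFN-γ was below PE + IFN-γ by a called difference of -0.61 ± 0.06 (adjusted p 3.37e-07) and below LE alone by -0.75 ± 0.08 (adjusted p 4.56e-08). The other Irf3 differences stayed under 1.5-fold. They included -0.30 ± 0.08 for IFN-γ against PBS (adjusted p 0.0132), -0.39 ± 0.06 for LE in Model A (adjusted p 7.73e-05) and 0.22 ± 0.06 for PE in Model A (adjusted p 0.0341). In Model B with SE the value was -0.58 ± 0.08, just short of the fold, and it passed the fold when SE replicate 2 or 3 or SE + IFN-γ replicate 2 or 3 was left out, at -0.59 to -0.60.

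Irf5, which links Toll-like receptors to inflammatory cytokine genes and is a lupus risk gene in people (chr6:29526625-29541871, plus strand), was not called in any of the 16 comparisons. Its lowest library had 128 CPM and its highest 185 CPM. It was higher with IFN-γ than without among LE libraries (0.32 ± 0.05, adjusted p 2.91e-05) and SE libraries (0.45 ± 0.05, adjusted p 5.57e-07), both under 1.5-fold. Irf9, the DNA-binding subunit of the type I interferon complex (chr14:55603571-55610030, plus strand), was also not called in any comparison. It had 40.9 to 51.0 CPM without IFN-γ and 51.5 to 66.1 CPM with it, so the 2 sets of libraries did not overlap. LE + IFN-γ (63.8 ± 2.09 CPM, SD, n = 3) and SE + IFN-γ (61.3 ± 1.70) lay above IFN-γ alone (54.8 ± 1.43), with adjusted p of 0.00379 and 0.0294 and folds of 1.16 and 1.12.

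The 3 pairs of peptides were compared directly in the presence of IFN-γ, at equal dose and time. LE against SE called 0 of 8 members by edgeR and by DESeq2, against 4.93% of 12720 genes. By edgeR, 5 members (Irf1, Irf2, Irf3, Irf4 and Irf7) passed the adjusted p with folds under 1.5, and 6 had an unadjusted p under 0.05. The 95% confidence intervals of the difference between LE and SE lay within -0.41 and 0.78 for all 8 members, widest for Irf4 (0.32 to 0.78). LE against PE called Irf4 (2.48 ± 0.13), Irf7 (1.15 ± 0.09) and Irf3 (-0.61 ± 0.06), against 21.6% of genes. SE against PE called Irf4 (1.93 ± 0.13), Irf7 (1.38 ± 0.09) and Irf1 (-0.66 ± 0.09), against 7.59% of genes. All 8 members were without overlap between LE + IFN-γ and PE + IFN-γ, as were 66.7% of all genes.

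**Figure D5:**
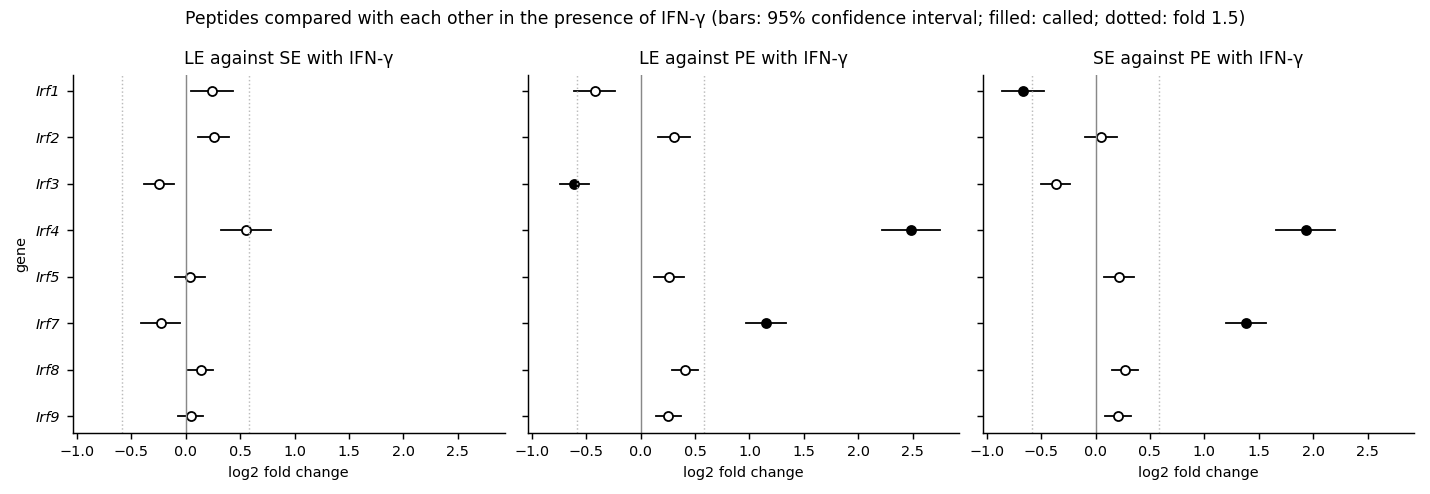
log2 fold change of each member between 2 peptides in the presence of IFN-γ, with 95% confidence intervals; filled points are calls and dotted lines mark a fold of 1.5. Irf4 and Irf7 lie far to the right against PE in the middle and right panels, and no member is called between LE and SE.

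Genes that act upstream of the IRFs were read from 2 lists. Of 16 interferon receptor and JAK-STAT genes, IFN-γ raised 5 and lowered 1, beside 18.1% of all genes called. Socs1, an inhibitor of JAK kinases, rose by 2.37 ± 0.28 on the log2 scale, and Ifngr2, a chain of the IFN-γ receptor, fell by 0.64. In Model A, LE raised 2 (Socs3, 0.83 ± 0.12, and Jak1, 0.78 ± 0.08) and lowered Socs1 (-0.73 ± 0.16), beside 15.5% of all genes called. SE called 0 of the 16 by edgeR (7.39% of all genes) and 1 by DESeq2, with 10 at an unadjusted p under 0.05. PE called 0 by either tool (0.629% of all genes by edgeR), with 5 at an unadjusted p under 0.05. Of 25 genes of the pathway that activates Irf3, Irf5 and Irf7, IFN-γ raised 4 and lowered 2, beside 18.1% of all genes called. Tlr9, the sensor of CpG DNA, rose by 2.12 ± 0.13 and Tmem173 (STING) by 1.51 ± 0.09, while the kinase gene Ikbke (-0.85 ± 0.09) and the RNA sensor gene Ddx58 (-0.79 ± 0.13) fell. LE raised 2 of 25, Tank (0.66 ± 0.10) and Ticam1 (0.61 ± 0.07), beside 15.5% of all genes called. SE raised 1 of 25, Ticam1 (0.67 ± 0.07), beside 7.39%, and PE called 0 of 25 by either tool, with 10 at an unadjusted p under 0.05. Ticam1 encodes TRIF, the adaptor through which Toll-like receptors reach Irf3.

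Of 18 tested DNA-binding partners 4 were called with IFN-γ, beside 18.1% of all genes. IFN-γ raised Batf2 (3.00 ± 0.15) and Ets2 (0.65 ± 0.10) and lowered Jun (-1.505 ± 0.095) and Nfatc1 (-0.69 ± 0.08). Spi1, the partner of Irf4 and Irf8, was not among them (-0.10 ± 0.08, adjusted p 0.391). LE added to IFN-γ raised 3 of 19, beside 15.5% of all genes: Jun (0.95 ± 0.10), Rel (0.81 ± 0.13) and Bcl6. SE raised Relb (0.71 ± 0.07) and Jun (0.71 ± 0.10), beside 7.39% of all genes. PE called 0 of 19 by either tool, beside 0.629% of all genes by edgeR, with 7 at an unadjusted p under 0.05. Of 10 co-regulators, edgeR called 0 with IFN-γ, where DESeq2 called 1 and 4 had an unadjusted p under 0.05. In Model A 0 of 10 were called with LE, SE or PE by either tool, with 5, 6 and 5 at an unadjusted p under 0.05. Ep300, a histone acetyltransferase, was lower with SE alone (-0.65 ± 0.15) and with PE alone (-0.74 ± 0.15).

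Most known targets rose with IFN-γ. Over all genes, 18.1% were called with IFN-γ. In Model A it was 15.5% with LE, 7.39% with SE and 0.629% with PE. Of 16 tested target genes of Irf1, 14 rose with IFN-γ and the other 2 were not called, with a median log2 fold change of 2.81 beside -0.0087 over all genes. Ciita, the MHC class II transactivator, had 1, 0 and 0 reads in the PBS libraries and 484, 596 and 394 with IFN-γ, a ratio per read total of 1411 with an exact Poisson 95% interval from 253 to 55783 that covers counting error only. Gbp2 rose by 8.03 ± 0.13. In Model A, LE raised 5 of 16, led by Ptgs2 (2.07 ± 0.17) and Gbp2 (1.47 ± 0.08), with a median of 0.24. SE raised 4, led by Il27 (1.502 ± 0.159) and Ptgs2 (1.39 ± 0.17), and lowered Ciita (-0.65 ± 0.11), with a median of 0.12. PE called 0 of 16 by either tool, with 6 at an unadjusted p under 0.05.

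The counts of the next 2 target lists stand beside these shares of all genes called. They were 18.1% with IFN-γ and 1.92% with SE alone. In Model A they were 15.5% with LE, 7.39% with SE and 0.629% with PE, and between LE and SE 4.93%. Of 23 tested targets of Irf3, Irf7 and Irf9, IFN-γ raised 14, led by Zbp1 (4.90 ± 0.13) and Mx1 (4.33 ± 0.42), and lowered Oas2 (-1.34 ± 0.11) and Ddx58. SE alone raised 4 of 22, with Ccl5 (1.297 ± 0.290) and Isg15 (0.87 ± 0.14) first, beside its rise of Irf7. In Model A, SE raised 11 of 23, led by Ccl5 (3.34 ± 0.09) and Cxcl10 (1.37 ± 0.19), with a list median of 0.43. LE raised 6 of 23, led by Ccl5 (1.97 ± 0.09) and Rsad2 (1.77 ± 0.10), with a median of 0.32, and PE raised Ccl5 alone (0.88 ± 0.09). Between LE and SE with IFN-γ, Ccl5 (-1.38 ± 0.07) and Isg15 (-0.70 ± 0.07) were lower with LE, in the same direction as Irf7. Of 14 tested targets of Irf4 and Irf8, LE raised 4 in Model A, led by Myc (2.49 ± 0.15) and Ccl22 (2.47 ± 0.23), SE raised 3, led by Ccl22 (2.92 ± 0.22) and Myc (1.83 ± 0.15), and PE raised Ccl22 alone (1.28 ± 0.26). The medians were 0.29, 0.07 and -0.15. IFN-γ against PBS raised 7 of 12 of them, Cd86 most (3.66 ± 0.12), and lowered Cst3 (-0.62 ± 0.07).

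In Model B, 14 of 16 Irf1 targets rose with each of the 3 peptides, with medians of 2.93 for LE, 2.73 for SE and 2.79 for PE. Over all genes, 35.1% were called with LE, 26.3% with SE and 21% with PE. Of the 14 targets of Irf4 and Irf8, 10 rose with LE, 9 rose and 1 fell with SE, and 8 rose and 4 fell with PE. DESeq2 called 9 of this list with LE. The interaction called 4 of these 14 for LE, beside 18.9% of all genes, and 3 for SE, beside 7.96%. All were higher, as was Irf4. DESeq2 called 4 of this list for LE and 2 for SE. Ccl22, a chemokine gene, had 2.67 ± 0.44 for LE and 3.07 ± 0.44 for SE, and Il4i1, an amino acid oxidase gene, 2.46 ± 0.67 and 1.95 ± 0.68. For PE it called 0 of 14 by edgeR and by DESeq2, with 5 at an unadjusted p under 0.05. Among the 16 Irf1 targets the interaction called 3 for LE, led by Ptgs2 (2.44 ± 0.42), beside 18.9% of all genes. For SE it called Ptgs2 alone (1.53 ± 0.41), beside 7.96% of all genes. All of these were higher, while Irf1 itself was lower for SE.

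The other lists were read in Model B beside 35.1% of all genes called with LE, 26.3% with SE and 21% with PE. Of the 23 targets of Irf3, Irf7 and Irf9, 16 rose and 2 fell with LE, 16 rose and 3 fell with SE, and 15 rose and 2 fell with PE, led by Zbp1 in each case. Of the 25 genes of the activating pathway, 7 rose and 3 fell with LE, 5 rose and 1 fell with SE, and 5 rose and 2 fell with PE, with Tlr9 the most raised. Of 19 partners, 4 rose and 3 fell with LE, 4 rose and 2 fell with SE, and 4 rose and 3 fell with PE. Of the 10 co-regulators, 4 rose and 1 fell with LE and 3 rose with SE, while PE called 0 by either tool, with 4 at an unadjusted p under 0.05. Trim21, a ubiquitin ligase, had 0.69 ± 0.15 with LE and 0.91 ± 0.15 with SE. Of the 16 receptor and JAK-STAT genes, 8 rose with LE, 8 rose and 1 fell with SE, and 7 rose and 1 fell with PE.

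The interaction called 18.9% of all genes for LE and 7.96% for SE. Among the 23 targets of Irf3, Irf7 and Irf9 it called 5 higher and 1 lower for LE and 3 higher for SE. Ccl5, a chemokine gene, had 1.23 ± 0.28 for LE and 2.04 ± 0.28 for SE, and the gene called lower for LE was Isg15 (-0.67 ± 0.16), a ubiquitin-like protein gene. Of the 25 genes of the activating pathway it called 5 higher and 2 lower for LE and 2 higher for SE. Tlr9 had 1.01 ± 0.19 for LE and 0.75 ± 0.19 for SE, while Tmem173 (-0.65 ± 0.12) and Myd88 (-0.59 ± 0.08), an adaptor of Toll-like receptors, were lower for LE. Of 19 partners it called 3 for LE and 2 for SE, all higher, with Rel, an NF-κB subunit gene, at 1.15 ± 0.20 and 0.94 ± 0.20. Of the 10 co-regulators it called 2 higher and 1 lower for LE and 1 higher for SE, and Ep300 was higher in both (0.59 ± 0.21 and 0.70 ± 0.21). Of the 16 receptor and JAK-STAT genes it called Jak1 alone, a kinase gene, in both (0.96 ± 0.13 and 0.67 ± 0.13). For LE, DESeq2 called 5 of the target list, 6 of the pathway list and 2 of the co-regulators. For PE, edgeR and DESeq2 called 0 in each of these 5 lists. At an unadjusted p under 0.05 there were 1 of the 23 targets, 1 of the 25 pathway genes, 3 of 19 partners, 0 of 10 co-regulators and 0 of 16 receptor and JAK-STAT genes.

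The genes whose levels were most like each member were ranked by Pearson's r of log2 CPM over the 12 libraries with IFN-γ, among 8640 genes with a mean of at least 10 CPM there. The 12 libraries fall into 4 treatments, so r mostly describes the order of treatments and carries no p. For Irf4 these were Adamts1 (r = 0.993), Gpr137b-ps (0.992) and Dusp4 (0.991), a phosphatase of MAP kinases. For Irf7 they were Wdfy1 (0.984), Riok3 (0.982) and Ticam1 (0.981). For Irf1 they were Hexa (0.985), a lysosomal hexosaminidase subunit, Dtnbp1 (0.967) and Mettl5 (0.966). Irf3 was closest to Tmem147 (0.988), Mrpl4 (0.985) and Hspbp1 (0.984), and Irf8 to Atp6v1b2 (0.980), Angpt2 (0.977) and Nadk (0.975). Irf9 was closest to Zfat (0.977), Irf5 to C1qc (0.956) and Irf2 to Grsf1 (0.939). No member was among the 3 nearest of another.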

How the data were processed

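The libraries were made from RAW264.7 cells treated as described above, 6 per group by the labels, of which the 3 letter-labelled ones per group were used. By the study's methods, stranded poly(A) libraries were read single-ended, and uniquely aligned reads were counted per gene with featureCounts on the GENCODE annotation of GRCm38.p5. The authors deposited whole-number read counts without normalization, and the authors tested them with DESeq2 1.16.1 in R 3.4.1. Here the counts were filtered with filterByExpr, scaled by TMM and tested with edgeR 4.0.16 (quasi-likelihood F test, Benjamini-Hochberg adjustment over all genes tested) in R 4.3.3 with limma 3.58.1. Each comparison was fitted on its own groups (IFN-γ and PBS; the 4 groups without IFN-γ; the 4 with it; the 6 with a peptide; all 8 for the interaction). Calls needed an adjusted p below 0.05 and a fold above 1.5. Standard errors are the log2 fold change divided by the root of F. Alternatives were RLE factors, DESeq2 1.42.0, no filter, a replicate block, 1 fit of all groups, the HLA-labelled libraries added or alone, and each library left out.

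The labels name replicates without saying that they were separate cultures, while a legend of the study speaks of biological replicates, so p-values measure the spread between these libraries, which may be technical. No same-group pair of libraries was a duplicate (lowest chi-square per degree of freedom 3.89 over 24 pairs). Levels are TMM-scaled CPM, and per-kilobase levels used merged exons of GENCODE M21 (GRCm38), so both reflect the authors' unique-read counting. Coordinates of genes are from that annotation and promoters from RefSeq. Protein sequences were not analysed here. Of the gene names, 26 looked like dates and 2 were repeated (4 lines). They stayed in the library totals and fits.

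The members and the gene lists (interferon receptors and JAK-STAT, the activating pathway, DNA-binding partners, co-regulators, 3 target lists and 6 lists of cell type markers) were chosen with earlier results of these data known. Named were all members in every comparison, up to 2 called genes per direction of each list described, by size of change, and the 3 genes most like a member. Other genes (Spi1, Bcl6, Tmem173, Ep300, Lck, Mertk, Sdc1, Ms4a1, Blk, Itgax, H2-DMb2, Flt3, Clec9a, Xcr1, Siglech) were named after their values were seen. Some genes of these lists are not reported here by name.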

Additional observations from a re-analysis of the deposited data

Results flagged for a closer look

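The effect of IFN-γ differed with and without a peptide for 4 called interactions of a member. For Irf4 the log2 difference was 2.72 with LE and 2.40 with SE, since IFN-γ raised Irf4 in the presence of either peptide and lowered it without one. For Irf7 it was 0.72 with LE. For Irf1 it was -0.80 with SE, where IFN-γ raised the gene less than without the peptide.

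The HLA-labelled libraries entered no comparison above. When they were tested alone as labelled, 11 levels were called higher than PBS and stood above all 3 libraries labelled PBS. The labels of these libraries give no IFN-γ. Levels above PBS without a call, such as Irf9 in those labelled PE, are not counted. Over all genes, 4065 of 14230 were called there for LE against PBS and 3627 of 14230 for PE against PBS. In the libraries labelled LE the mean levels were 120.6 CPM for Irf1, 30.4 for Irf4, 194.6 for Irf5, 364.8 for Irf7, 192.1 for Irf8 and 93.8 for Irf9. In those labelled PE they were 157.6 CPM for Irf1, 21.2 for Irf4, 187.1 for Irf5, 206 for Irf7 and 184.8 for Irf8. The libraries labelled PBS had means of 18.0 CPM for Irf1, 9.62 for Irf4, 106.7 for Irf5, 102.1 for Irf7, 66.2 for Irf8 and 60.1 for Irf9. All 6 of these libraries labelled LE or PE were among the 12 that went against their labels by Gbp2. Gbp2 checked only the IFN-γ part of a label. Whether the peptide part is right was not tested for any HLA-labelled library, also for the 12 that went with their labels by Gbp2. Those labelled LE + IFN-γ had a mean of 6.48 CPM for Irf4, beside 22.9 CPM in the letter-labelled libraries of that treatment.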

How the results depend on the processing

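On the letter-labelled libraries, 128 of 128 values of a member in a comparison kept their call, or stayed uncalled, with RLE size factors, 127 with DESeq2, 126 without the filter on low counts, 127 with the replicate block and 127 in 1 fit of all 8 groups, and no called value turned its sign. The members called by SE alone against PBS went from 1 to 2 with DESeq2, without the filter, with the replicate block and in 1 fit of all 8 groups, since Irf4 then passed (-0.69, -0.68, -0.69 and -0.66), and Irf8 in Model B with PE passed without the filter (0.59). Replicate numbers paired the libraries only as a number: same-numbered libraries had correlations of their deviations from -0.198 to 0.329 (36 of 84 above 0.1, median 0.0619) and 14 of 24 libraries correlated best with their own number. The replicate block changed no other call of a member. Leaving out 1 library kept the call, or its absence, of 897 of 912 such values, with 4 calls lost and 11 gained, each named in the report. The count of members called between LE and SE with IFN-γ then ranged from 0 to 1. Over all genes, leaving out 1 library moved the genes called from 3 to between 1 and 3 for LE alone (1 without PBS replicate 1 or 3 or any LE replicate), from 239 to between 48 (without SE replicate 3) and 381 (without SE replicate 2) for SE alone, with 103 and 145 without PBS replicates 1 and 3 and 105 without SE replicate 1. It moved them from 389 to between 78 (without PE replicate 1) and 1002 (without PE replicate 2) for PE alone, with 120 without PBS replicate 1 and 84 without PE replicate 3. For PE in Model A they went from 80 to between 18 (without PE + IFN-γ replicate 3) and 157 (without IFN-γ replicate 2), with 24 and 129 without IFN-γ replicates 1 and 3, and 52 and 135 without PE + IFN-γ replicates 1 and 2. The interaction of PE had 1 gene without IFN-γ replicate 2. Without the filter, LE alone called 57 genes, PE in Model A 152 and the interaction of PE 61. In 1 fit of all 8 groups LE alone called 7 genes and PE in Model A 24, and with the replicate block LE alone called 7. The cause of these shifts was not tested. With both label sets as labelled, 6 per group, the members called were 0 in IFN-γ against PBS (4), SE alone against PBS (1), Model A LE (2), Model A SE (3), LE against PE with IFN-γ (3), SE against PE with IFN-γ (3), Model B LE (5), Model B SE (4), Model B PE (3), Interaction LE (2), Interaction SE (2), with the count of the letter-labelled libraries in parentheses. Over all genes, the calls there were 1 of 12917 for IFN-γ against PBS and 110 of 13961 for Model A LE. They were 21 of 14339 for Model B LE, 271 of 14339 for Model B PE and 0 for the other comparisons just named. The log2 fold changes of 6 calls turned their sign: Irf4 0.14 (IFN-γ against PBS), Irf4 -0.32, Irf7 -0.25 (Model B LE), Irf7 -0.32 (Model B PE), Irf4 -0.45, Irf7 -0.47 (Interaction LE). With the HLA-labelled libraries alone, as labelled, the members called were 0 in IFN-γ against PBS (4), SE alone against PBS (1), Model A SE (3), LE against PE with IFN-γ (3), Model B SE (4), Interaction SE (2), and 1 in Interaction PE (0), and 3 in LE against SE with IFN-γ (0), Model B LE (5), and 4 in Model A PE (0), and 5 in PE alone against PBS (0), and 6 in LE alone against PBS (0). Over all genes, the calls there were 0 of 13690 for IFN-γ against PBS, 0 of 14230 for SE alone and 10 of 14110 for Model A SE. They were 19 of 14110 for LE against PE, 21 of 14527 for Model B SE and 0 of 14748 for Interaction SE. Interaction PE had 2145 of 14748, LE against SE 2236 of 14110 and Model B LE 2593 of 14527. Model A PE had 1890 of 14110, PE alone 3627 of 14230 and LE alone 4065 of 14230. Of the values called in either setting, 31 turned their sign: Irf1 -0.12, Irf4 0.57, Irf7 -0.66 (IFN-γ against PBS), Irf4 1.65, Irf8 1.55, Irf9 0.65 (LE alone against PBS), Irf7 -0.42 (SE alone against PBS), Irf4 1.13 (PE alone against PBS), Irf1 2.88, Irf4 -1.16 (Model A LE), Irf1 0.10, Irf7 -0.13 (Model A SE), Irf7 0.61, Irf8 0.92 (Model A PE), Irf4 -1.35 (LE against SE with IFN-γ), Irf4 -0.093, Irf7 -0.21 (LE against PE with IFN-γ), Irf7 -0.74, Irf8 -0.9998 (SE against PE with IFN-γ), Irf3 0.21, Irf4 -2.25, Irf7 -2.11, Irf8 -0.73 (Model B LE), Irf7 -0.37 (Model B SE), Irf1 -0.092, Irf7 -1.08 (Model B PE), Irf4 -2.82, Irf7 -1.45, Irf8 -0.80 (Interaction LE), Irf1 0.13 (Interaction SE), Irf4 -2.20 (Interaction PE). In these settings 12 of the 24 HLA-labelled libraries go against their labels by Gbp2. In the column order of the deposited counts, the 3 letter-labelled libraries of each treatment stand next to 3 HLA-labelled ones whose labels name another treatment. That order was not used for grouping, and whether the HLA labels are permuted was not tested. For the other 12 the peptide part of the label was not tested, so a turned sign in these settings cannot be told apart from a wrong label. Depth limited Irf4 most, with 61 reads in its lowest library.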
